A study of Mus musculus with 6 samples.

Results

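miR-103 and miR-107 are closely related microRNAs (miRNAs) whose hairpins lie inside introns of the pantothenate kinase genes Pank1, Pank2 and Pank3. Every entry named mmu-miR-103 or mmu-miR-107, with any arm or copy suffix, was taken from the deposited table, which gave 3 of its 1712 entries: mmu-miR-103-3p, mmu-miR-107-3p and mmu-miR-107-5p. The mmu- prefix, for mouse, is left out of names from here on. Small RNA had been sequenced from extracellular vesicles that osteoblasts, the bone-forming cells, released after apoptosis was induced in serum-free medium. The knockout libraries (n = 3) came from Prx1cre;SIRT6f/f mice, which carry floxed alleles of the deacetylase gene Sirt6 and a Cre transgene driven by Prx1 regulatory sequence, active in limb mesenchyme. The control libraries (n = 3) came from SIRT6f/f mice, which carry the same floxed alleles and no Cre. Neither the age of the mice nor the source of the replicates (animals, cultures or aliquots) is in the labels, so the spread between libraries may be technical. Small RNA libraries do not report Sirt6 mRNA, so the deletion could not be checked here. The 3 entries were chosen by name, but this family was picked on its RPM in these same 6 libraries, where the levels of the miR-107 strands parted between the genotypes. Their differences between the genotypes are therefore given as a description, without a test.

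Pantothenate kinases start the synthesis of coenzyme A, and miR-103 and miR-107 are best known for their place in metabolism: in mouse liver and fat they repress caveolin-1 and lower insulin sensitivity. In human cells they also repress Dicer, the enzyme that cuts miRNA hairpins. Dicer leaves a 5p and a 3p strand of each hairpin. One strand is usually loaded into Argonaute as the guide, and for miR-103 and miR-107 the 3p strand is the one usually described as the guide.

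The 3 hairpins are shown because the results turn on which arm, and which hairpin, the reads came from. The arms are in capitals, written 5′ to 3′ as RNA from RefSeq (GRCm38.p6).
Mir103-1: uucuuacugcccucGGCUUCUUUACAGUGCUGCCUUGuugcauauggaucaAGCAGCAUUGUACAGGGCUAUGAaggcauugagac
Mir103-2: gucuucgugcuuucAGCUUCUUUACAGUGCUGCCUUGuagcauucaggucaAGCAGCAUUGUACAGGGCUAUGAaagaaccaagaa
Mir107: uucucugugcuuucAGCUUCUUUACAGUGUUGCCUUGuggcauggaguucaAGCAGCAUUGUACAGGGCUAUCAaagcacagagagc
Mir103-1 lies at chr11:35782396-35782481 on the plus strand, Mir103-2 at chr2:131288052-131288137 on the plus strand and Mir107 at chr19:34820687-34820773 on the minus strand. In GENCODE M21, on GRCm38, they sit in intron 5 of the principal transcripts of Pank3, Pank2 and Pank1, each on the strand of its host gene. The sources used here do not name the build behind the deposited table, so hairpins were matched by miRNA name only.

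The mature strands are shown with the seed, bases 2 to 8, in capitals, because the seed sets which target sites a miRNA pairs with.
miR-103-3p: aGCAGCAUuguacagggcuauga
miR-107-3p: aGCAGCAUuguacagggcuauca
miR-107-5p: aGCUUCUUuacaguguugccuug
Both 3p strands are 23 bases long and share their seed, and among 1679 mature mouse miRNAs in the RefSeq table no other has it. Counted from 1 at the 5′ end, miR-103-3p and miR-107-3p differ by G22C (the base of miR-103-3p first), 1 base before the 3′ end. A read that ends before that base cannot be assigned to either by its sequence, and the sources used here do not say how such reads were assigned. Mir103-1 and Mir103-2 give the same 3p strand, so miR-103-3p pools their output. The 5p strand of miR-107 differs from that of Mir103-2 by C16U (the base of Mir103-2 first). No entry for a 5p strand of miR-103 was in the table analysed here, so the 5p/3p ratio was taken for miR-107 alone. The sources used here do not say where reads of a miR-103 5p strand, if any, were counted. The miR-107-5p entry may therefore include some of them.

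The depth of the libraries, recovered from the steps of the values, was 1608276 to 1838239 reads in the knockout group and 1352045 to 1627705 reads in the control group. The values are RPM, reads per 1000000 reads of all entries of a library, including 184 with a numeric ID and no miRNA name. Entries with an mmu- name, without 5 that may be fragments of other RNAs (miR-6236, miR-6238, miR-6239, miR-6240 and miR-3968), took 30.1% to 40.8% of reads in knockout libraries and 48.0% to 53.0% in control libraries. Levels per 1000000 reads of these entries alone, here called mmu-scaled RPM, are therefore given beside the RPM. Of 7 miRNAs that mark the mesenchymal donor cells, 6 were listed (miR-199a-3p was not listed under that name), and their sum was 55158 to 99304 RPM in knockout libraries and 131225 to 152472 RPM in control libraries. The 6 listed of 7 blood cell markers (miR-486a-5p was not listed under that name) summed to 249 to 454 RPM in knockout libraries and 594 to 851 RPM in control libraries. The markers of endothelium (2 of 2 listed, 15.2 to 26.7 RPM in knockout and 47.9 to 63.6 RPM in control libraries), muscle (3 of 3 listed, 40.3 to 57.6 RPM in knockout and 71.0 to 85.1 RPM in control libraries) and liver (1 of 1 listed, 3.26 to 10.6 RPM in knockout and 17.8 to 18.7 RPM in control libraries) were lower in the same way. Those of epithelium (3 of 3 listed, 9.25 to 12.4 RPM in knockout and 7.21 to 11.1 RPM in control libraries) and neural cells (1 of 2 listed, 0 to 6.78 RPM in knockout and 1.23 to 5.05 RPM in control libraries; miR-124-3p was not listed under that name) overlapped between the groups. The groups did not overlap for the sums of the other 5 lists. A sum follows its most abundant entries, and not every listed marker was lower. The mesenchymal marker miR-145a-5p was at 1070 ± 97.1 RPM in the knockout group and 997 ± 187 RPM in the control group (SD, n = 3 each), with overlapping groups. How many single markers were lower was not counted. The sums are in RPM, and the mmu- entries without the fragment-like ones together took a smaller share of reads in the knockout libraries. On that scale 79.9% of the 269 such entries whose mean reached 10 RPM were lower in the knockout group. The lists were not summed as mmu-scaled RPM, so whether they fell by more than miRNAs in general was not tested. The part of these shifts in the results below was not tested either. In bulk vesicle RNA, fewer vesicles from a cell type and less of a miRNA per vesicle cannot be told apart.

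miR-107-3p, from the Pank1 hairpin, was at 49.7, 47.4 and 22.3 RPM in knockout replicates 1, 2 and 3, against 79.3, 82.8 and 88.5 RPM in control replicates 1, 2 and 3. Every knockout library lay below every control library, and knockout replicate 3 was the lowest. Across the table, 215 of the 1114 entries tested lay lower in this way without overlap (19.3%), and 70 lay higher (6.28%). That share was not counted among abundant entries alone, where downward shifts were more common. The knockout mean of log2(RPM + 1) was lower for 79.9% of 269 mmu- entries at a mean of at least 10 RPM, against 60.1% of all tested entries. The mean was 39.8 ± 15.2 RPM in the knockout group and 83.5 ± 4.62 RPM in the control group (SD, n = 3 each), a ratio of 0.477. The log2 difference, knockout minus control on log2(RPM + 1), was -1.13 ± 0.35 (SE from the limma fit across all entries). Without knockout replicate 3 it was -0.77. The reads behind these values were few: 41 in knockout replicate 3, whose exact 95% Poisson interval was 16.01 to 30.26 RPM, and 144 in control replicate 3, with an interval of 74.6 to 104 RPM. Intervals cover counting error only, since reads without molecular identifiers are not independent molecules.

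miR-103-3p, made from the Pank2 and Pank3 hairpins, was at 187, 219 and 133 RPM in knockout replicates 1, 2 and 3, against 221, 210 and 249 RPM in control replicates 1, 2 and 3. The groups overlapped, since knockout replicate 2 lay above control replicate 2. The mean was 179 ± 43.4 RPM in the knockout group and 227 ± 20.4 RPM in the control group (SD, n = 3 each), with a log2 difference of -0.36 ± 0.30 (SE). Without knockout replicate 3 that difference was -0.16. On the mmu-scaled RPM, miR-103-3p was at 489 ± 47.5 in the knockout group and 457 ± 53.5 in the control group (SD, n = 3 each), and the log2 difference turned to 0.10 ± 0.18 (SE). With trimmed-mean scaling, which scales each library by its typical entry, it was 0.12 ± 0.20 (SE).

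miR-107-5p, the other strand of the Pank1 hairpin, was at 148, 242 and 64.7 RPM in knockout replicates 1, 2 and 3, against 87.2, 111 and 119 RPM in control replicates 1, 2 and 3. Knockout replicates 1 and 2 lay above every control library and knockout replicate 3 below them all. The highest knockout value was 3.74 times the lowest, against 1.37 times in the control group. The mean was 152 ± 88.9 RPM in the knockout group and 106 ± 16.6 RPM in the control group (SD, n = 3 each), and the log2 difference was 0.34 ± 0.32 (SE from the fit, which pools the spread over entries) or ± 0.57 (SE from the spread of miR-107-5p alone). Its sign rested on single libraries: it was -0.10 without knockout replicate 2 and 0.85 without knockout replicate 3. Knockout replicate 3 had the lowest level of all 3 entries, and also the lowest share of reads in mmu- entries.

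After rescaling to mmu- entries without the fragment-like ones, miR-107-3p still lay lower in every knockout library, at 131, 116 and 74.1 mmu-scaled RPM in knockout replicates 1, 2 and 3, against 150, 172 and 184 mmu-scaled RPM in control replicates 1, 2 and 3. Its log2 difference was then -0.69 ± 0.26 (SE). On this scale miR-107-5p was at 388, 594 and 215 mmu-scaled RPM in the knockout replicates and at 164, 231 and 247 mmu-scaled RPM in the control replicates. Its log2 difference was 0.80 ± 0.32 (SE from the fit, which pools the spread over entries). The SE from the spread of miR-107-5p alone, larger on the RPM scale (0.57 against 0.32), was not computed after rescaling. The groups still overlapped for miR-107-5p. The share of all entries without overlap was counted on the RPM scale only, so none stands beside these rescaled values. Rescaling moved the median log2 difference of all tested entries to 0.07, against -0.27 on the RPM scale.

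**Figure D1:**
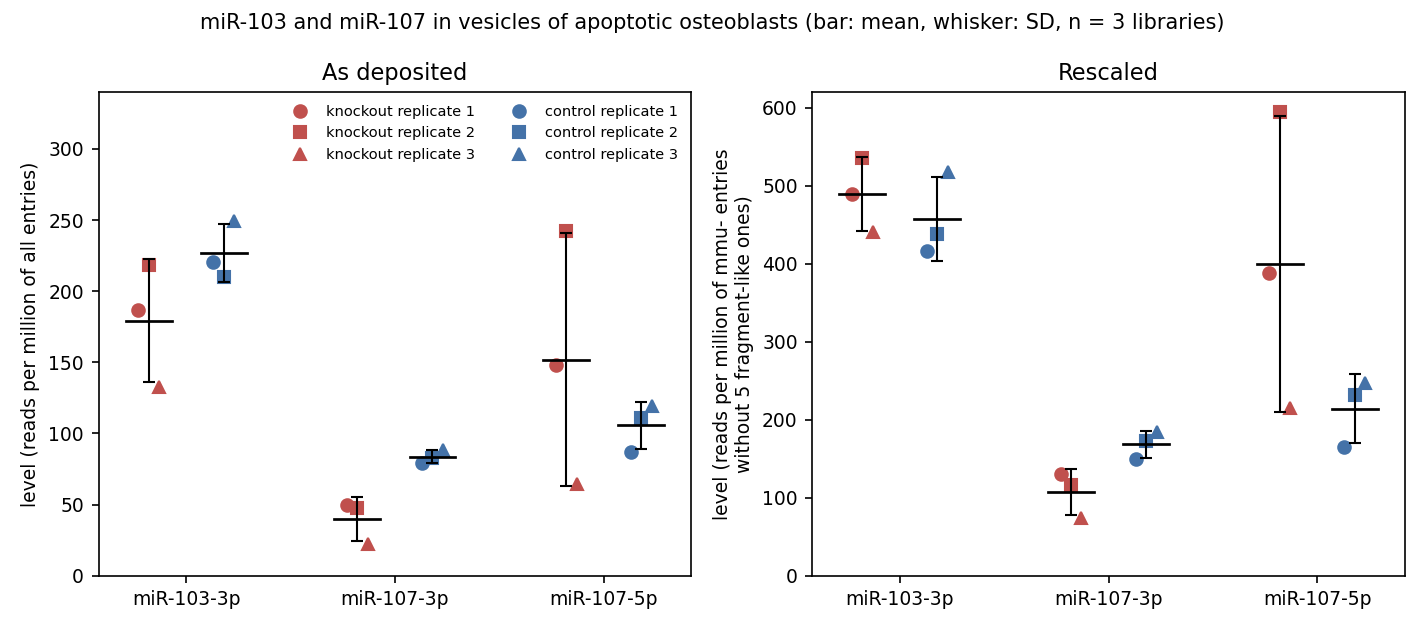
Level of each entry in each library, as deposited in RPM (left) and as mmu-scaled RPM (right), with knockout left of control and the mean and SD of 3 libraries. miR-107-3p does not overlap between the groups on either scale, whereas miR-103-3p and miR-107-5p do, and miR-107-5p spreads from 64.7 to 242 RPM among the knockout libraries.

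The strands of the Pank1 hairpin were set against each other within each library, a ratio that does not depend on the scaling. The 5p/3p ratio of miR-107 was 2.98, 5.11 and 2.90 in knockout replicates 1, 2 and 3, against 1.10, 1.34 and 1.35 in control replicates 1, 2 and 3. All 3 knockout ratios were above the highest control ratio, and the 5p entry was the more abundant one in all 6 libraries. These are ratios of entries: the 5p entry may include miR-103 5p reads. How 3p reads that end before base 22 were assigned is not known either. The mean ratio was 3.66 ± 1.25 in the knockout group and 1.26 ± 0.140 in the control group (SD, n = 3 each). On log2((5p RPM + 1)/(3p RPM + 1)) the difference, knockout minus control, was 1.47 ± 0.28 (SE from the spread of miR-107). With knockout replicate 2 left out it was 1.20, and with any other library left out at most 1.61.

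As a share of the miR-107 reads, the 5p strand took 74.8%, 83.6% and 74.4% in knockout replicates 1, 2 and 3, against 52.4%, 57.3% and 57.4% in control replicates 1, 2 and 3. The lowest bound of the 95% Wilson intervals was 67.1% among the knockout libraries, and the highest bound was 63.1% among the control libraries. These intervals cover counting error within a library, not the spread between libraries, so they are no test of the genotypes. The sum of both strands was 198, 290 and 87.0 RPM in the knockout replicates, against 167, 194 and 208 RPM in the control replicates. Its means were close, at 192 ± 102 RPM in the knockout group and 189 ± 20.9 RPM in the control group (SD, n = 3 each), but the log2 difference of -0.14 ± 0.52 (SE) leaves the change of the sum poorly determined.

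miR-107-3p was then set against miR-103-3p, which has the same seed and comes from other loci. The miR-107-3p/miR-103-3p ratio was 0.267, 0.217 and 0.168 in knockout replicates 1, 2 and 3, against 0.359, 0.394 and 0.355 in control replicates 1, 2 and 3. The groups did not overlap, and miR-103-3p was the more abundant in all 6 libraries. How often ratios between other pairs of entries part in this way was not counted. The mean ratio was 0.217 ± 0.0493 in the knockout group and 0.370 ± 0.0217 in the control group (SD, n = 3 each). The log2 difference was -0.77 ± 0.19 (SE from the spread of this ratio). Leaving out 1 library gave values of -0.92 to -0.61, the smallest without knockout replicate 3.

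In reads, miR-107-3p made up 21.1%, 17.8% and 14.4% of both 3p strands in knockout replicates 1, 2 and 3, against 26.4%, 28.3% and 26.2% in control replicates 1, 2 and 3. Counting error blurs the nearest pair: the 95% Wilson interval was 17.3% to 25.4% in knockout replicate 1 and 22.7% to 30.0% in control replicate 3. The miR-107-5p/miR-103-3p ratio was 0.793, 1.11 and 0.488 in the knockout replicates and 0.395, 0.528 and 0.478 in the control replicates, with overlapping groups. The summed level of the shared seed, miR-103-3p plus miR-107-3p, was 236, 266 and 155 RPM in knockout replicates 1, 2 and 3, against 300, 293 and 338 RPM in control replicates 1, 2 and 3. The groups did not overlap on the RPM scale, where 19.3% of all tested entries were also lower without overlap. The log2 difference on that scale was -0.53 ± 0.24 (SE from its own spread), or -0.30 without knockout replicate 3. It was -0.072 ± 0.14 (SE) after rescaling to mmu- entries without the fragment-like ones and -0.047 ± 0.16 (SE) with trimmed-mean scaling.

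**Figure D2:**
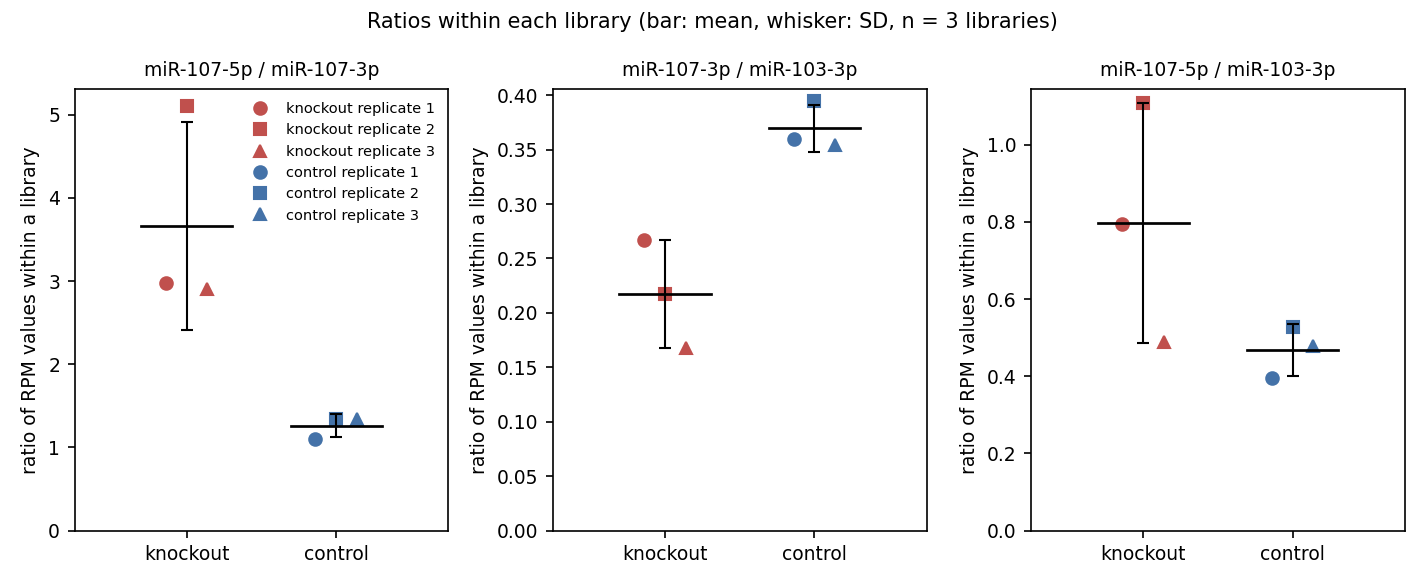
Ratios of the RPM values within each library, with knockout left of control and the mean and SD of 3 libraries. The 5p/3p ratio of miR-107 is higher in every knockout library (2.90 to 5.11) than in any control library (1.10 to 1.35), the miR-107-3p/miR-103-3p ratio is lower in every knockout library, and the miR-107-5p/miR-103-3p ratio overlaps between the groups.

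The arm ratio of miR-107 was placed beside that of 35 other hairpins with both arms under 1 name and each arm at a mean of at least 10 RPM. In the order of the mean log2 5p/3p ratio over the 6 libraries, miR-107 stood at position 15 of 36 (1.06), below let-7d (2.68) and miR-677 (2.42) and above miR-145a (0.94) and miR-872 (0.89). In the order of the difference between the genotypes it stood first, at 1.47, ahead of miR-144 (1.35 ± 0.33 SE) and miR-145a (1.001 ± 0.29 SE). That place is not an independent result, since the family was picked because the levels of the miR-107 strands parted between the genotypes. Over the 36 hairpins the median difference was 0.15, with 26 above 0 and a range of -1.40 to 1.47. The lowest, miR-320, had an SE of 1.01. The groups did not overlap, with higher ratios in the knockout, for 6 of the 35 other hairpins (17.1%), and with lower ratios for 0.

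The limma adjustment ran over all 36 hairpins, with the picked miR-107 included, which can lower the adjusted p of the others. An adjustment over the others alone was not run. Of the 35 others, 1 hairpin passed the limma threshold (2.86%; Benjamini-Hochberg adjusted p under 0.05), with a higher ratio. This was miR-144, whose products mark red blood cells (limma adjusted p = 0.0241). Its 5p/3p ratio was 0.586, 0.760 and 1.43 in knockout replicates 1, 2 and 3, against 0.304, 0.286 and 0.381 in control replicates 1, 2 and 3. Its call was lost without knockout replicate 2 (limma adjusted p = 0.0922), knockout replicate 3 (0.0748) or control replicate 2 (0.132), and with hairpins down to 5 RPM an arm included (0.111). With 1 library left out, 0 to 5 of the other hairpins passed with a higher ratio. None had a ratio that limma called lower, and 0 of the 35 did so at an unadjusted p under 0.05. For miR-145a, a smooth muscle and mesenchymal miRNA, the ratio was 2.61, 2.12 and 3.63 in the knockout replicates, against 1.44, 1.46 and 1.18 in the control replicates (limma adjusted p = 0.0561).

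In all 3 hairpins at the top of that order the 3p strand was lower in every knockout library than in any control library, while the 5p strand overlapped between the groups. miR-145a-3p was at 438, 523 and 264 RPM in knockout replicates 1, 2 and 3, against 820, 683 and 686 RPM in control replicates 1, 2 and 3. miR-145a-5p was at 1141, 1109 and 959 RPM in the knockout replicates, against 1182, 999 and 809 RPM in the control replicates. miR-144-3p was at 18.03, 14.12 and 7.62 RPM in the knockout replicates, against 40.4, 31.1 and 38.7 RPM in the control replicates. These hairpins are named because the order placed them next to miR-107, and that order, by the 5p/3p ratio, itself favours a lower 3p strand. Over all tested entries, 19.3% were lower without overlap, so nothing is read from this count.

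**Figure D3:**
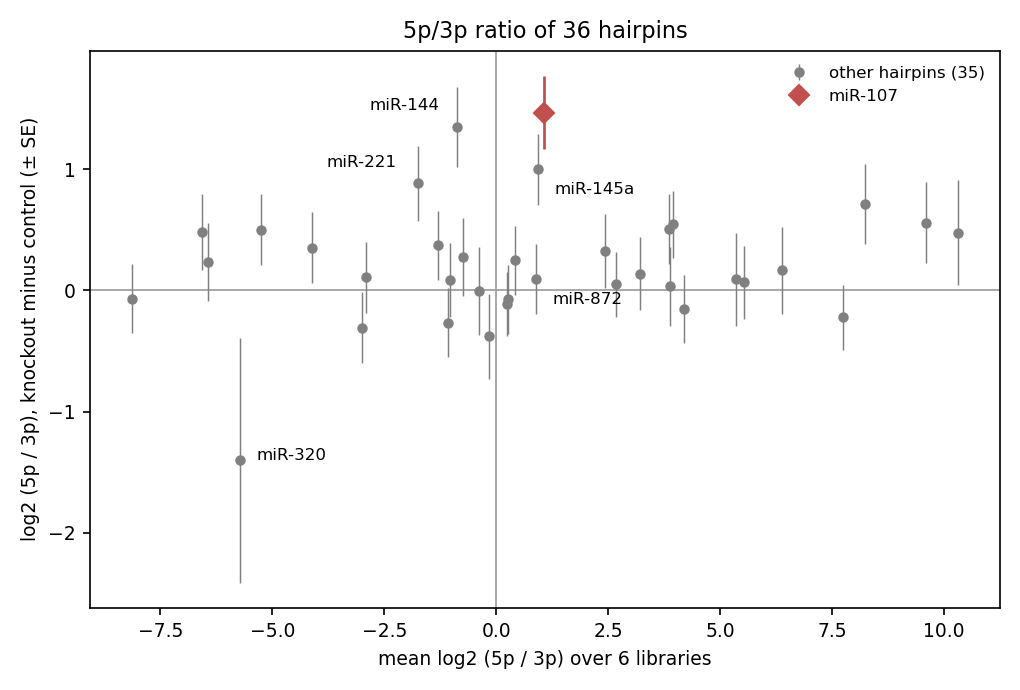
Each point is a hairpin, with its mean log2 5p/3p ratio over the 6 libraries on the x axis and the log2 difference of that ratio, knockout minus control, with its SE from the limma fit on the y axis. miR-107 (diamond) has the highest difference, 1.47, followed by miR-144 and miR-145a, and 26 of the 36 hairpins lie above 0. The family was picked because the levels of its miR-107 strands parted in these libraries.

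miR-103-3p and miR-107-3p begin with the bases AGCAGC, which miRNAs of the miR-15/16 group, repressors of cell cycle and survival genes such as Bcl2, carry 1 base further in. These relatives show the shared stretch in capitals.
miR-15b-5p: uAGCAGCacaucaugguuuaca
miR-16-5p: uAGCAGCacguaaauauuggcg
miR-195a-5p: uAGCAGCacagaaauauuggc
miR-322-5p: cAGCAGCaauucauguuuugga
miR-503-5p: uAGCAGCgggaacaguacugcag
Of 17 listed entries of this group, 15 were tested with limma across all 1114 entries: 8 were 5p or single strands, which carry the stretch, and 7 were their 3p partner strands, which come from the same hairpins and are not relatives by seed. Of the 8, 0 were higher and 1 was lower (0 and 2 at an unadjusted p under 0.05), and of the 7 partner strands 0 passed in either direction (0 higher and 1 lower unadjusted), against 24 higher (2.15%) and 30 lower (2.69%) over all tested entries. After rescaling to mmu- entries without the fragment-like ones those totals were 34 higher and 1 lower. With 1 library left out they ranged from 0 to 26 higher and from 0 to 18 lower, with 0 of each without control replicate 3 and 0 lower without control replicate 2. The median log2 difference was -0.45 over the 8 and -0.28 over the 7 partner strands, beside -0.27 over all tested entries and -0.59 over 269 mmu- entries, without the fragment-like ones, whose mean reached 10 RPM.

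The relative nearest to miR-103-3p in level was miR-15b-5p, with 190, 151 and 145 RPM in knockout replicates 1, 2 and 3, against 224, 258 and 238 RPM in control replicates 1, 2 and 3. The groups did not overlap, but its log2 difference of -0.57 ± 0.30 (SE) did not pass (limma adjusted p = 0.269). miR-16-5p was the most abundant entry of the group, with 343, 396 and 245 RPM in the knockout replicates, against 472, 436 and 439 RPM in the control replicates (log2 difference -0.48 ± 0.29 SE, limma adjusted p = 0.372).

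The lower entry was miR-503-5p, which in human cells represses cyclin D1, a driver of the cell cycle, at 95.8, 102 and 38.6 RPM in knockout replicates 1, 2 and 3, against 199, 181 and 243 RPM in control replicates 1, 2 and 3. It fell by 1.50 on the log2 scale (SE 0.32, limma adjusted p = 0.000329). The call was lost without control replicate 2 (limma adjusted p = 0.0703), without control replicate 3 (0.300), after rescaling to mmu- entries without the fragment-like ones (0.0600) and with no mean-variance trend (0.281). miR-322-5p, from the same X-chromosomal cluster, was at 22.7 ± 4.04 RPM in the knockout group and 39.4 ± 2.57 RPM in the control group (SD, n = 3 each; limma adjusted p = 0.247). The partner strand miR-322-3p, which is not a relative by seed, had a log2 difference of -0.89 ± 0.30 (SE, limma adjusted p = 0.0567, or 0.0380 where only entries with at least 10 RPM in 3 libraries were tested). miR-15a-5p, miR-195a-5p, miR-195b and miR-497a-5p had log2 differences of 0.13, -0.41, -0.05 and -0.43, and the 3p strands of miR-15a, miR-15b, miR-16-1, miR-16-2, miR-195a and miR-503 had -0.28, -0.61, -0.20, -0.08, 0.01 and -0.55, none past the threshold.

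**Figure D4:**
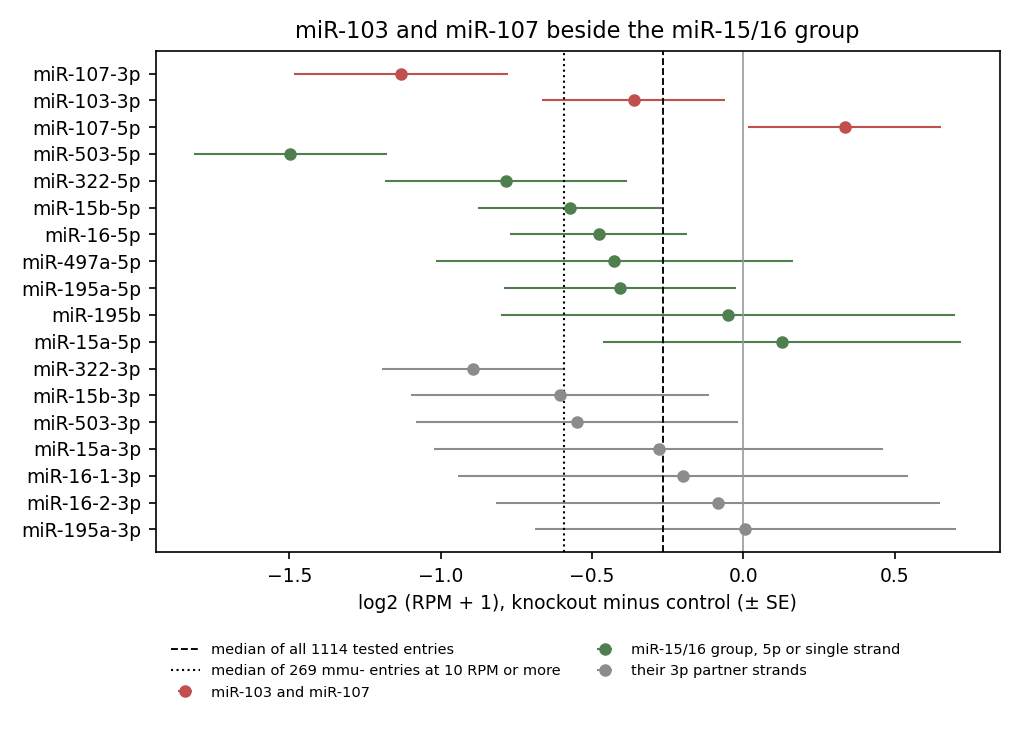
Log2 difference, knockout minus control on log2(RPM + 1), with its SE from the limma fit for the 3 entries of miR-103 and miR-107, 8 tested 5p or single strands of the miR-15/16 group and 7 of their 3p partner strands. The dashed line is the median of all tested entries (-0.27) and the dotted line that of 269 mmu- entries whose mean reached 10 RPM (-0.59); miR-103-3p lies between these lines, miR-107-3p below both and miR-107-5p above both.

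Other miRNAs in introns of metabolic genes formed a second list of 4 entries: miR-33 of Srebf2, the gene of a sterol-sensing transcription factor, and miR-378a of Ppargc1b, the gene of a coactivator of mitochondrial metabolism. All 4 were tested, 0 passed in either direction with limma (also 0 at an unadjusted p under 0.05), against 2.15% higher and 2.69% lower over all tested entries. The median log2 difference was -0.90, beside -0.27 over all tested entries and -0.59 over the mmu- entries whose mean reached 10 RPM, and 3 of the 4 entries averaged under 8 RPM in either group. miR-378a-3p was the abundant one, at 803, 822 and 487 RPM in knockout replicates 1, 2 and 3, against 1025, 951 and 893 RPM in control replicates 1, 2 and 3 (log2 difference -0.48 ± 0.29 SE, limma adjusted p = 0.363). miR-378a-5p averaged 3.82 ± 0.488 RPM in the knockout group and 7.92 ± 3.04 RPM in the control group (SD, n = 3 each; limma adjusted p = 0.535). miR-33-5p was listed at 0 in all knockout libraries and at 1.23 to 2.22 RPM in the control libraries, close to the level of 3 reads. miR-33-3p averaged 1.13 ± 1.96 RPM in the knockout group and 2.29 ± 0.773 RPM in the control group (SD, n = 3 each; limma adjusted p = 0.547).

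By mean level over the 6 libraries, miR-103-3p stood at rank 100 of the 1528 mmu- entries (203 RPM), between miR-455-3p (204 RPM) and miR-15b-5p (201 RPM). miR-107-5p stood at rank 117 (129 RPM), between miR-690 and miR-101b-3p, and miR-107-3p at rank 158 (61.7 RPM), between miR-206-3p and miR-184-3p. The spread over libraries exceeded the step to these neighbours in each case: the SD over the 6 libraries was 39.9, 62.5 and 26.0 RPM for miR-103-3p, miR-107-5p and miR-107-3p. In knockout replicate 2, miR-107-5p (242 RPM) was above miR-103-3p (219 RPM), whereas miR-103-3p was the higher of this pair in the other 5 libraries.

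The profiles over the 6 libraries were compared by the root mean square difference of log2(RPM + 1) after centring each entry on its mean, among 271 other mmu- entries whose mean reached 10 RPM. These distances describe libraries that share their totals. The closest to miR-103-3p were miR-17-5p (0.098), miR-16-5p (0.104), miR-30a-5p (0.113), miR-28a-3p (0.119) and miR-182-5p (0.123). The closest to miR-107-3p were miR-199b-3p (0.123), miR-30a-3p (0.130), miR-151-5p (0.131), miR-466p-3p (0.132) and miR-122-5p (0.133). For miR-107-5p the nearest profiles were farther off, with miR-3092-3p at 0.181, miR-7b-3p at 0.278, miR-380-3p at 0.368, miR-3068-3p at 0.388 and miR-5121 at 0.389. Between the entries themselves, miR-107-3p was 0.787 from miR-107-5p, the other strand of its own hairpin, and 0.428 from miR-103-3p. The miR-3092-3p profile shared the order of the knockout libraries seen for miR-107-5p, with 36.7, 50.8 and 19.0 RPM in knockout replicates 1, 2 and 3, against 25.2, 25.9 and 32.6 RPM in control replicates 1, 2 and 3.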

How the data were processed

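The authors deposited 1 table of RPM values, with 1 column per library and 1712 entries. The submitters' processing notes name the tools fastp and edgeR with no role or version. The sources used here do not give the aligner, miRNA annotation or build. A column sums to 1000000, so abundant entries that rise lower the others. All non-zero values were whole multiples of a step equal to the lowest non-zero value of the column divided by 2, within 0.001 steps. Steps were read as reads, with 3 reads at 1.63 to 2.22 RPM, but no count model was run.

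Entries with at least 1 RPM in at least 3 libraries (1114) were tested on log2(RPM + 1) by limma (version 3.58.1, run under R version 4.3.3) using its mean-variance trend option, 2-sided, and called at a Benjamini-Hochberg adjusted p under 0.05. The prior took the whole weight, so the SEs pool the spread over entries. Ratios within hairpins were fitted with limma without a trend, and their p values were adjusted over all hairpins, miR-107 included. The members, lists and tests were chosen with earlier results of these data known. The entries named are the members, both lists, the 5 nearest profiles, and the neighbours in level and arm ratio. Sequences and positions are from RefSeq (GRCm38.p6) and GENCODE M21, matched by name. Alternatives were other scalings, pseudocounts, filters, priors, a replicate block and each library left out.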

Additional observations from a re-analysis of the deposited data

How the results depend on the processing

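The differences of the miR-107 5p/3p ratio (1.38 to 1.49) and of the miR-107-3p/miR-103-3p ratio (-0.79 to -0.69) kept their sign under every pseudocount tried, and lay at 1.20 to 1.61 and -0.92 to -0.61 with a library left out. Levels depended on the scaling and on single libraries. After scaling to mmu- entries without the fragment-like ones, miR-103-3p had a log2 difference of 0.10 and its sum with miR-107-3p one of -0.072, and with trimmed-mean scaling these were 0.12 and -0.047. The sum lay between -0.69 and -0.30 with a library left out. miR-107-5p had -0.10 without knockout replicate 2 and 0.85 without knockout replicate 3.

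Over all entries, limma called 24 higher and 30 lower. The pairs of higher and lower counts were 27 and 5 with scaling to all mmu- entries, 34 and 1 without the fragment-like ones, 32 and 8 with median centring, 39 and 2 with trimmed-mean scaling, 21 and 15 with a pseudocount of 0.5 and also with no filter, 24 and 60 with at least 10 RPM in 3 libraries, and 22 and 17 with a robust prior. With no mean-variance trend they were 0 and 0 (55 and 75 at an unadjusted p under 0.05). With a library left out they ranged from 0 to 26 and from 0 to 18. They were 0 and 0 without control replicate 3 (53 and 84 unadjusted), 6 and 0 without control replicate 2 (62 and 128 unadjusted), 18 and 3 without control replicate 1, and 18 and 18, 14 and 6, and 26 and 15 without knockout replicates 1, 2 and 3.

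The count of lower entries among the miR-15/16 group and its partner strands was 1, and 0 after scaling without the fragment-like entries or with no trend (1 at an unadjusted p under 0.05 in each), 2 at the filter of 10 RPM (miR-322-3p, a partner strand, was added), and 0 without control replicate 2 or 3. The count of other hairpins with a higher 5p/3p ratio was 1, and 3 with a pseudocount of 5, 0 with each arm at a mean of at least 5 RPM (3 unadjusted), and 0 to 5 with a library left out. That with a lower ratio was 0, and 0 to 1 with a library left out. The causes were not tested.

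The replicate numbers were also entered as a block. Samples with the same number did not deviate together (r from -0.02 to 0.01 over 1114 entries). With 3 libraries a group, this cannot settle whether they share more than a number. The replicate block gave 19 higher and 11 lower entries and the same log2 differences of the members. Trimmed-mean scaling was computed on the RPM columns. At this depth the level of miR-107-3p rests on 41 to 144 reads a library, which limits its ratios.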
